A study of Mus musculus with 12 samples.

Results

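Soluble ErbB4 (sErbB4), the ectodomain of a neuregulin receptor, was added to mouse hippocampal cultures in which γ-secretase was inhibited, and the RNA was compared with that of cultures given the inhibitor alone. Libraries were chosen by their treatment label, which gave 3 libraries of DAPT + sErbB4 and 3 of DAPT, together 6 of the 12 libraries of the series. All cultures were from wild-type (WT) mice, were prepared at P4 and, by the labels, had been kept for 8 d at pretreatment. The study places sErbB4 and RNA collection later than the pretreatment. DAPT is a small-molecule γ-secretase inhibitor and was used at 20 µM in both groups, and sErbB4 was used at 20 nM for 4 h in one of them. The other 6 libraries were vehicle (3) and sErbB4 without DAPT (3), and they entered the fit to share its estimate of spread. The sources differ on whether DAPT was given overnight or for a full day before sErbB4. Replicates are described as separate platings of cells from several pups and litters, so that each library pools animals.

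Type III Nrg1 is a neuregulin that stays in the neuronal membrane and can act as a receptor as well as a ligand. When ErbB4 binds it, the neuron that carries Nrg1 receives a signal, which is called back signaling. In nuclear back signaling, γ-secretase cuts Nrg1 within the membrane and its intracellular domain travels to the nucleus. In local back signaling, PI3K and Akt are activated at the membrane, and no cut by γ-secretase is needed. The comparison of DAPT + sErbB4 with DAPT asks which transcripts differ 4 h after sErbB4 when the nuclear arm is blocked.

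Library totals, in units of 1000000 counts, were 46.1 to 51.4 with DAPT and 46.7 to 53.4 with DAPT + sErbB4, of which 23.3 to 26.0 and 24.4 to 28.2 lay on loci with a gene name. Rn45s, the ribosomal RNA precursor, took 31.4, 35.3 and 44.6% of the named counts of the DAPT libraries and 40.7, 43.1 and 44.2% of those of the DAPT + sErbB4 libraries, so that it was low in 2 libraries of one group only. Levels are given in CPM (counts per 1000000, scaled by TMM), and with Rn45s left out of the fit the number of differentially expressed genes (DEGs) in the comparison was 0, as with it. A count of 0 in both fits cannot show whether the small shifts described below depend on Rn45s. The medians of the gene lists below were also taken without Rn45s, among the alternatives given at the end. The cultures held the markers of neurons and of macroglia. With DAPT alone, the neuronal gene Snap25 stood at 191 ± 2.91 CPM (SD, n = 3), the astrocyte water channel gene Aqp4 at 272 ± 12.7 CPM and the precursor receptor gene Pdgfra at 37.1 ± 0.949 CPM. Defining markers of blood vessel lining were low, with Pecam1 between 0.261 and 0.536 CPM in the 6 libraries. Of the defining microglial markers in these libraries, Cx3cr1 did not exceed 1.61 CPM, while Csf1r stood between 6.73 and 8.45 CPM.

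No gene passed the test at a Benjamini-Hochberg adjusted p under 0.05 with a log2 fold change (FC) beyond 0.32 in either direction in the edgeR quasi-likelihood fit over 15656 genes (0% of the genes tested). DESeq2 called 9 genes and limma called 1. At an unadjusted p under 0.05, 1442 genes remained, of which 750 were higher with sErbB4 (4.79% of the genes tested) and 692 lower (4.42%). The smallest adjusted p was 0.0795, reached by Pvalb, Nes, Eln and Syp. Shifts were small. Among the 10888 genes that averaged 5 CPM or more, the median absolute log2 FC was 0.06, and 64 genes were higher and 60 lower by more than 0.32. The 3 libraries of one group lay wholly above the 3 of the other for 1435 genes in the direction of DAPT + sErbB4 (9.17%) and for 1537 genes in the direction of DAPT (9.82%).

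**Figure D1:**
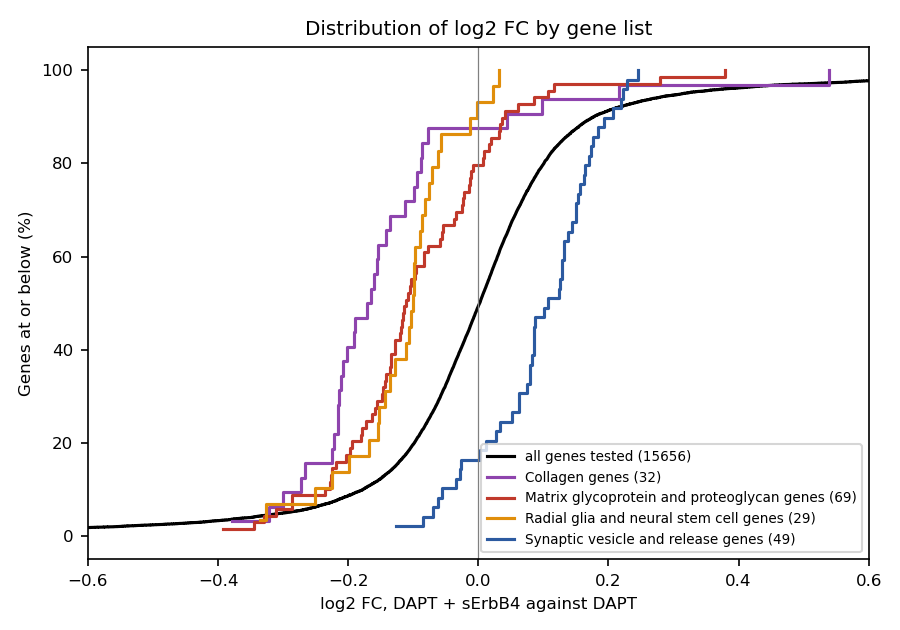
Cumulative share of genes (y axis, %) at or below each log2 FC of DAPT + sErbB4 against DAPT (x axis), for all 15656 genes tested and for 4 gene lists, with the number of measured members in parentheses. The lines of the collagen, matrix glycoprotein and radial glia lists lie to the left of all genes, with medians of -0.17, -0.11 and -0.10, and that of synaptic vesicle genes lies to the right, with a median of 0.11.

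Gene lists by function and cell type separated in direction although no member passed the test. Genes of synaptic vesicles, GABA-A receptors and voltage-gated channels mostly had a positive log2 FC with sErbB4. Genes of collagens, other extracellular matrix proteins, radial glia, astrocytes and oligodendrocyte precursors mostly had a negative one. Over all genes tested, 50.6% of log2 FC values were positive and the median was 0.00. Counts of members at an unadjusted p under 0.05 stand beside 4.79% higher and 4.42% lower over all genes. Counts of members without overlap stand beside 9.17% higher and 9.82% lower. Because these are bulk libraries, fewer cells of a type and less RNA per cell cannot be told apart.

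**Figure D2:**
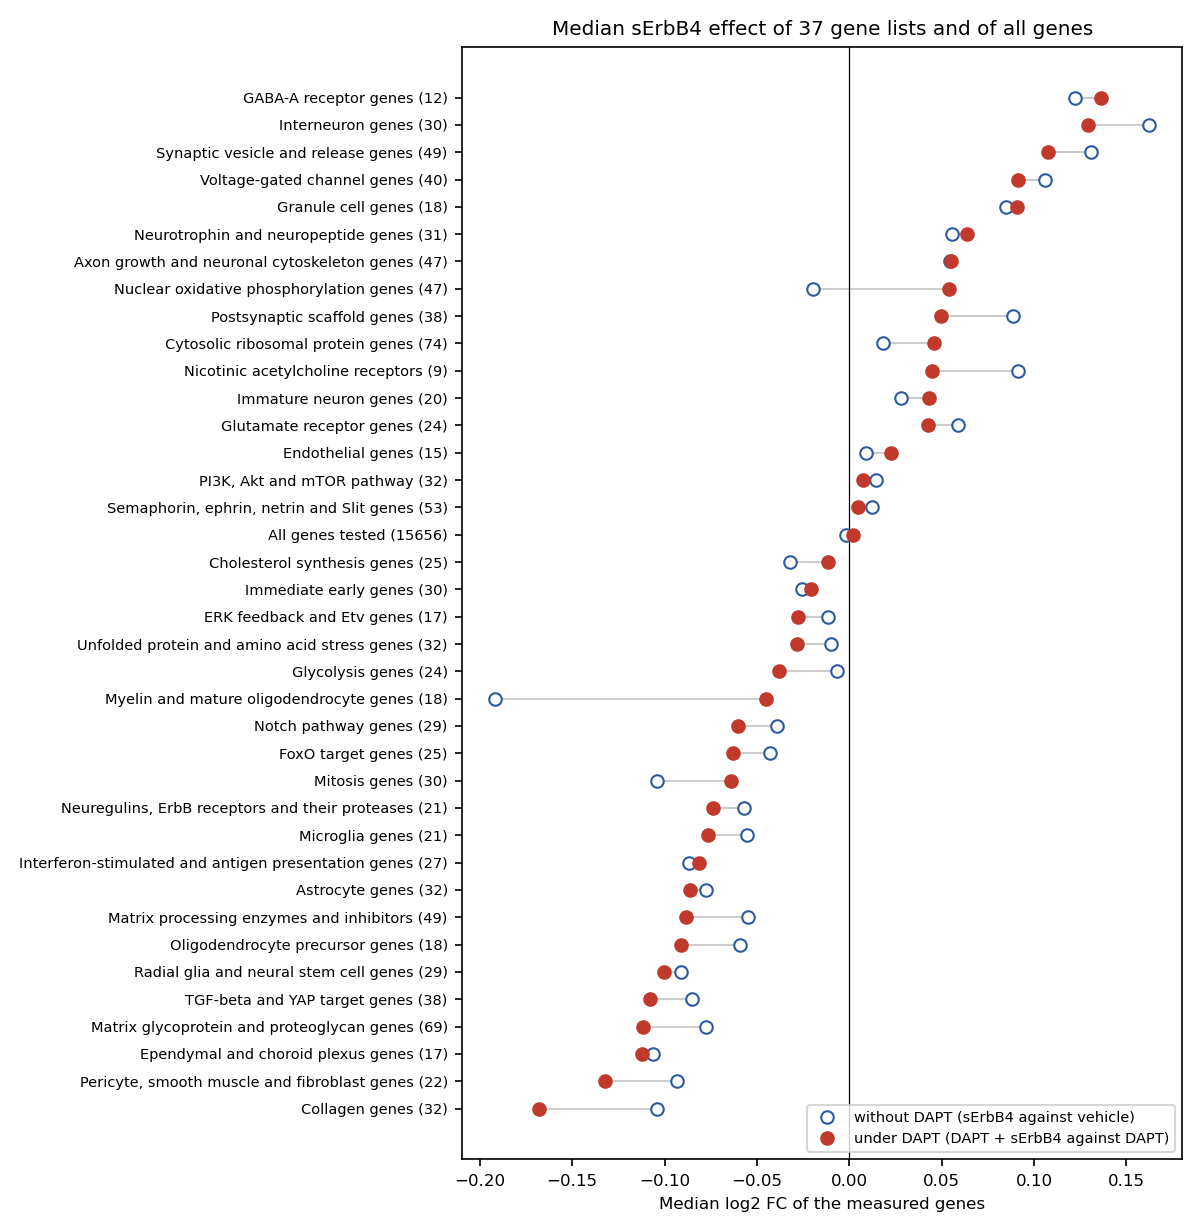
Median log2 FC (x axis) of the measured genes of 37 lists and of all genes tested (y axis, number measured in parentheses), filled for sErbB4 added under DAPT and open for sErbB4 against vehicle. Under DAPT the medians run from -0.17 for collagen genes to 0.14 for GABA-A receptor genes, and nuclear oxidative phosphorylation genes have a positive median under DAPT only (0.05 against -0.02).

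Synaptic vesicle and release genes, which store transmitter and release it at the axon terminal, mostly pointed one way. Of 49 measured members 41 (83.7%) had a positive log2 FC (median 0.11), 14 were higher at an unadjusted p under 0.05 (4.79% of all genes tested were) against 0 lower, and in 27 the DAPT + sErbB4 libraries lay wholly above the DAPT libraries (9.17% of all genes). Syp encodes synaptophysin, a major membrane protein of the vesicle. It stood at 290.4, 299 and 296 CPM with DAPT and at 349.7, 335 and 337 CPM with DAPT + sErbB4. The groups did not overlap, and the log2 FC was 0.21 (± 0.03 SE, edgeR-adjusted p = 0.0795). Synpr, a vesicle protein of the same family that is abundant in granule cell terminals, was measured at 24.4, 23.3 and 24.8 CPM with DAPT and at 28.9, 27.8 and 28.2 CPM with DAPT + sErbB4 (log2 FC 0.23 ± 0.04 SE, edgeR-adjusted p = 0.18). All 3 libraries with sErbB4 again lay above all 3 without it.

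Within the list, membrane and peripheral vesicle proteins were the most uniform, with 11 of 11 positive (median 0.16). At an unadjusted p under 0.05 there were 6 of them (4.79% of all genes were higher), and 10 had no overlap between groups (9.17% of all genes). All 8 genes of the SNARE machinery, which fuses vesicles with the membrane, were positive (median 0.08), and Snap25 was at 188, 193 and 193 CPM with DAPT and 221, 214 and 211 CPM with DAPT + sErbB4 (log2 FC 0.17 ± 0.05 SE, edgeR-adjusted p = 0.391). Scaffold and priming genes of the active zone were less uniform, with 10 of 14 positive (median 0.08) and 1 at an unadjusted p under 0.05. Of 10 calcium sensor and complexin genes 7 were positive and 3 negative (median 0.13). The 3 transporters that load vesicles had 2 positive members and 1 negative.

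Postsynaptic and membrane excitability genes leaned the same way. Of 12 GABA-A receptor subunit genes, 11 had a positive log2 FC (median 0.14) and 5 were higher at an unadjusted p under 0.05 (4.79% of all genes were). Of 38 postsynaptic scaffold genes 33 were positive (median 0.05), with 7 higher and 1 lower at an unadjusted p under 0.05 (4.79 and 4.42% of all genes). Camk2a, the α subunit of the calcium-dependent kinase of excitatory synapses, was at 213 ± 8.28 CPM and 235 ± 9.14 CPM (log2 FC 0.14 ± 0.05 SE, edgeR-adjusted p = 0.408). Glutamate receptor genes were divided, with 15 of 24 positive (median 0.04, and -0.01 without DAPT replicate 3). Of the NMDA receptor subunits 4 of 6 were positive, and the obligatory subunit Grin1 had the smallest p of the list, with 79.8, 86.4 and 80.5 CPM against 95.5, 97.2 and 93.4 CPM (log2 FC 0.21 ± 0.06 SE, edgeR-adjusted p = 0.345). Of 4 AMPA receptor subunits 2 were positive and 2 negative (median 0.02), so the receptors that carry fast excitation did not share a direction.

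Voltage-gated channel genes, which shape the action potential, had 34 of 40 members positive (median 0.09), 7 higher and 1 lower at an unadjusted p under 0.05 (4.79 and 4.42% of all genes). Sodium channels had 6 of 7 positive, among them Scn2a, the sodium channel of young axons, with 29.4, 29.0 and 30.4 CPM against 33.1, 33.5 and 31.4 CPM (log2 FC 0.14 ± 0.04 SE, edgeR-adjusted p = 0.368). Potassium channels had 15 of 17 positive and calcium channels 11 of 14. Axon growth and neuronal cytoskeleton genes had 33 of 47 positive (median 0.05, and 0.02 without DAPT replicate 3). At an unadjusted p under 0.05, 10 were higher and 1 lower (4.79 and 4.42% of all genes). The stathmins, which control microtubule turnover in growing neurites, led this list. Stmn3 stood at 338 ± 14.2 and 397 ± 17.1 CPM (log2 FC 0.23 ± 0.05 SE, edgeR-adjusted p = 0.303) and Stmn2 at 460.3 ± 13.8 and 512 ± 12.9 CPM (log2 FC 0.15 ± 0.04 SE, edgeR-adjusted p = 0.341). Guidance genes (semaphorins, ephrins, netrins and Slits) showed no common direction, with 29 of 53 positive and 5 in each direction at an unadjusted p under 0.05.

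**Figure D3:**
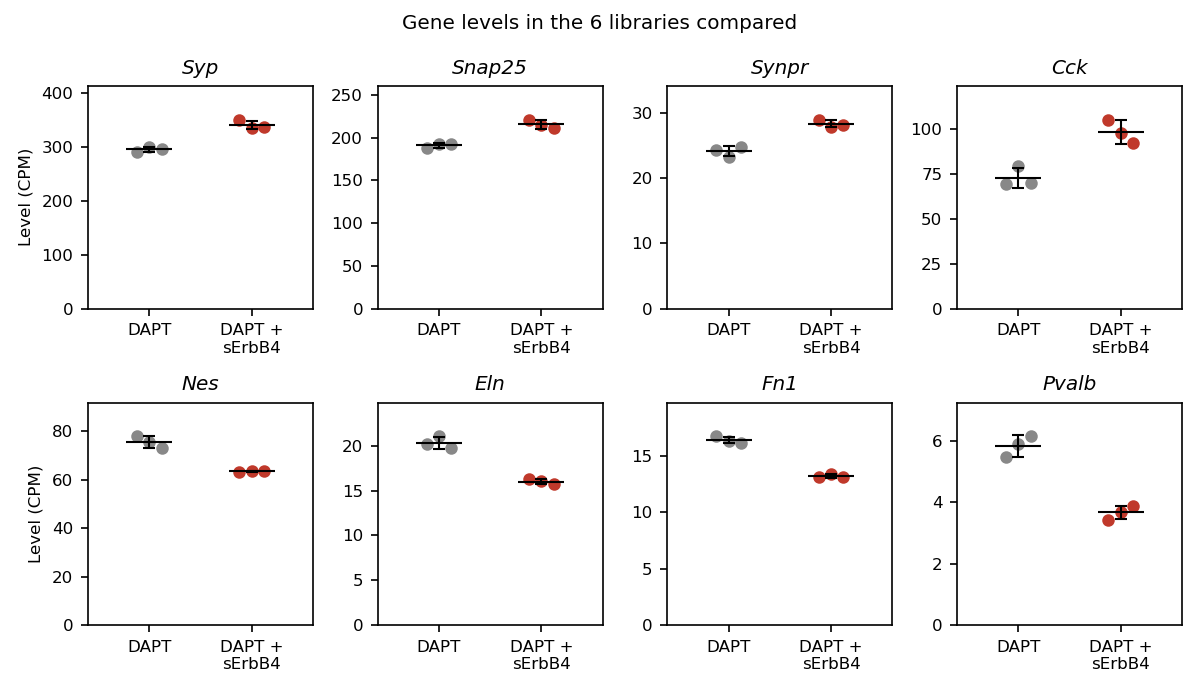
Levels (y axis, CPM, from 0) of 8 genes in the 3 DAPT and 3 DAPT + sErbB4 libraries (x axis), each point a library, with the mean as a bar and the SD as whiskers. Most of the 8 genes were named for small p values or a call by an alternative, which favours groups without overlap. The groups do not overlap for any of the 8 genes, as for 9.17% (higher) and 9.82% (lower) of all genes tested. The mean of Syp goes from 295 to 340.5 CPM and that of Nes from 75.5 to 63.5 CPM, although no gene passed the test.

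Extracellular matrix genes lay on the other side. Of 36 collagen genes 32 passed the filter on low counts, and of these 28 (87.5%) had a negative log2 FC (median -0.17), 12 were lower (4.42% of all genes tested were) and 1 higher at an unadjusted p under 0.05, and in 18 the DAPT + sErbB4 libraries lay wholly below the DAPT libraries (9.82% of all genes). All 20 collagen genes that averaged 5 CPM or more were negative. All 9 fibrillar collagens, which form the tensile fibres of connective tissue, were negative (median -0.21), and 8 of the 9 did not overlap. Col1a1, the α1 chain of type I collagen, stood at 17.2, 17.5 and 14.9 CPM with DAPT and at 13.0, 13.6 and 14.2 CPM with DAPT + sErbB4 (log2 FC -0.27 ± 0.10 SE, edgeR-adjusted p = 0.442). Col1a2, its partner chain, was at 37.7 ± 1.96 and 32.5 ± 0.929 CPM (log2 FC -0.21 ± 0.06 SE, edgeR-adjusted p = 0.338).

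Basement membrane genes followed. Of 7 collagens of the basement membrane 6 were negative, 5 of them at an unadjusted p under 0.05. Col4a1 and Col4a2 encode the chains that assemble into the common type IV network. The start sites of the promoter windows used are 21 bases apart on opposite strands of chromosome 8 (11312826 and 11312805, GRCm38, RefSeq). The annotated Col4a1 gene extends to 11312889, so the distance depends on the start taken. Col4a1 stood at 60.1, 58.5 and 54.7 CPM with DAPT and at 48.6, 50.7 and 49.8 CPM with DAPT + sErbB4 (log2 FC -0.22 ± 0.04 SE, edgeR-adjusted p = 0.237). Col4a2, named after its values were seen, stood at 35.8, 33.0 and 33.2 CPM and at 30.6, 30.1 and 30.9 CPM (log2 FC -0.16 ± 0.04 SE, edgeR-adjusted p = 0.352). Both chains were lower in every DAPT + sErbB4 library than in any DAPT library. Among 13 laminins, nidogens and related glycoproteins of this layer 12 were negative (median -0.14), 6 at an unadjusted p under 0.05 (4.42% of all genes were lower) and 9 without overlap (9.82%).

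Of 69 matrix glycoprotein and proteoglycan genes 55 (79.7%) were negative (median -0.11), 19 were lower and 1 higher at an unadjusted p under 0.05 (4.42 and 4.79% of all genes). Eln, which encodes the elastin of elastic fibres, was one of the 4 genes with the smallest adjusted p. It stood at 20.2, 21.1 and 19.8 CPM with DAPT and at 16.3, 16.0 and 15.7 CPM with DAPT + sErbB4 (log2 FC -0.34 ± 0.05 SE, edgeR-adjusted p = 0.0795), and DESeq2 called it. Its groups were far apart relative to the spread within them. Fn1, fibronectin, was at 16.7, 16.4 and 16.1 CPM and at 13.1, 13.4 and 13.2 CPM, which did not overlap, and the fit still gave an SE of 0.11 on a log2 FC of -0.31 (adjusted p = 0.454, same edgeR test), with the spread of all 4 conditions in it. Thbs1, thrombospondin, a matricellular protein that glia secrete, was at 17.1 ± 0.17 and 14.8 ± 0.524 CPM (log2 FC -0.20 ± 0.04 SE, edgeR-adjusted p = 0.241). The exception among the smallest p values was Spock3, a proteoglycan that neurons express, at 16.3 ± 1.03 and 19.8 ± 0.233 CPM (log2 FC 0.28 ± 0.06 SE, edgeR-adjusted p = 0.27). The 6 lecticans and link proteins, which build the matrix around brain neurons, were divided, with 4 negative and 2 positive.

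Enzymes that build and cut the matrix had 39 of 49 members negative (median -0.09), 11 lower and 1 higher at an unadjusted p under 0.05 (4.42 and 4.79% of all genes). Adamts1, a secreted metalloprotease that cleaves proteoglycans, stood at 28.5, 28.1 and 28.5 CPM with DAPT and at 23.4, 23.5 and 24.6 CPM with DAPT + sErbB4 (log2 FC -0.25 ± 0.04 SE, edgeR-adjusted p = 0.114). The 3 DAPT libraries were close to one another and all above the others. Plod3, which hydroxylates lysine in collagen, was at 26.0 ± 0.695 and 22.9 ± 0.70 CPM (log2 FC -0.18 ± 0.04 SE, edgeR-adjusted p = 0.306). Of 38 target genes of TGF-beta and YAP, which respond to matrix signals and to tension on the cell, 34 were negative (median -0.11). At an unadjusted p under 0.05, 14 were lower and 1 higher (4.42 and 4.79% of all genes). Ccn2, a secreted matricellular protein and a commonly used YAP target, was at 164, 173 and 167 CPM and at 134, 147 and 139 CPM (log2 FC -0.27 ± 0.07 SE, edgeR-adjusted p = 0.336).

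The genes of fibroblasts and vessel wall cells, which make much of the fibrillar collagen of a tissue, had 18 of 22 members negative (median -0.13). At an unadjusted p under 0.05, 7 were lower and 0 higher (4.42 and 4.79% of all genes). The list shares 3 genes with the collagen list, 4 with the matrix glycoprotein and proteoglycan list and 1 with the TGF-beta and YAP list, all counted above. Their defining markers were present at low to moderate levels. Pdgfrb stood at 11.3, 10.4 and 9.80 CPM with DAPT and at 8.78, 9.27 and 9.85 CPM with DAPT + sErbB4 (log2 FC -0.17 ± 0.07 SE, edgeR-adjusted p = 0.516), and Dcn at 23.9, 22.8 and 23.8 CPM and 19.1, 21.0 and 23.2 CPM (log2 FC -0.16 ± 0.07 SE, edgeR-adjusted p = 0.536). Both overlapped between groups. The part of these cells in the matrix values was not tested.

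Genes of radial glia and neural stem cells had 27 of 29 members negative (93.1%, median -0.10). At an unadjusted p under 0.05, 8 were lower and 0 higher (4.42 and 4.79% of all genes). In 15 the DAPT + sErbB4 libraries lay wholly below the DAPT libraries (9.82% of all genes). Nes encodes nestin, the intermediate filament of neural stem cells and reactive astrocytes. It stood at 77.9, 75.5 and 73.1 CPM with DAPT and at 63.2, 63.8 and 63.4 CPM with DAPT + sErbB4 (log2 FC -0.25 ± 0.03 SE, edgeR-adjusted p = 0.0795). Its DAPT + sErbB4 values had an SD of 0.299 CPM and lay wholly below those with DAPT. Vim, vimentin, its filament partner and an abundant transcript here, was at 1298, 1261 and 1205 CPM and at 1063, 1099 and 1118 CPM (log2 FC -0.20 ± 0.06 SE, edgeR-adjusted p = 0.391). Sox2, a transcription factor of neural stem cells and astrocytes, was at 86.2 ± 1.75 and 78.1 ± 2.55 CPM (log2 FC -0.14 ± 0.04 SE, edgeR-adjusted p = 0.344).

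Astrocyte genes had 30 of 32 members negative (median -0.09), 8 lower and 0 higher at an unadjusted p under 0.05 (4.42 and 4.79% of all genes). Of the 32, 3 are shared with the radial glia list. Clu, clusterin, was at 1064 ± 26.6 and 972 ± 17.4 CPM (log2 FC -0.13 ± 0.05 SE, edgeR-adjusted p = 0.484), and the defining marker Aldh1l1, a folate enzyme, at 126 ± 5.97 and 118 ± 3.05 CPM (log2 FC -0.09 ± 0.05 SE, edgeR-adjusted p = 0.609). Of 18 oligodendrocyte precursor genes 17 were negative (median -0.09), 3 of them at an unadjusted p under 0.05. Olig2, the lineage transcription factor, was at 69.9, 71.4 and 67.4 CPM and at 61.8, 62.6 and 61.6 CPM (log2 FC -0.17 ± 0.03 SE, edgeR-adjusted p = 0.241), without overlap. The receptor gene Pdgfra, which defines the precursors, differed little, at 37.1 ± 0.949 and 36.3 ± 1.24 CPM (log2 FC -0.03 ± 0.05 SE, edgeR-adjusted p = 0.932). Myelin genes had 14 of 18 negative (median -0.04) and microglial genes 15 of 21 (median -0.08), with 0 of 18 and 1 of 21 at an unadjusted p under 0.05, the latter higher with sErbB4. Of 15 endothelial genes 8 were positive and 7 negative. Of 17 ependymal and choroid plexus genes 13 were negative (median -0.11), and 2 genes of motile cilia, Rsph1 and Tekt1, were lower at an unadjusted p under 0.05.

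**Figure D4:**
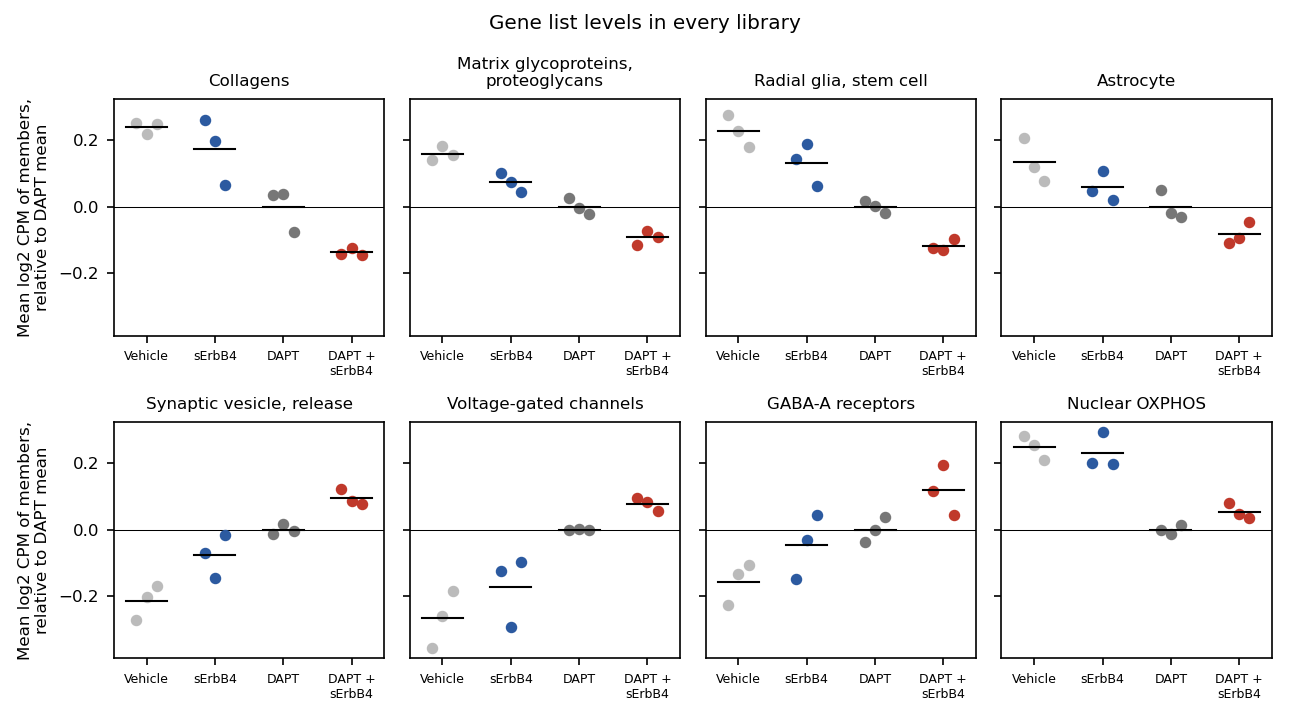
Mean log2 CPM of the members of 8 gene lists in each of the 12 libraries (y axis, relative to the mean of the DAPT libraries), by condition (x axis), with a bar at each condition's mean. The DAPT + sErbB4 libraries lie below every DAPT library for the collagen, matrix glycoprotein, radial glia and astrocyte lists and above every one for the vesicle, channel, GABA-A receptor and oxidative phosphorylation lists.

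Each list could be followed library by library. The mean log2 CPM of the collagen list, relative to the DAPT mean, was 0.04, 0.04 and -0.08 in the DAPT libraries and -0.14, -0.12 and -0.14 in the DAPT + sErbB4 libraries. That of the radial glia list was 0.02, 0.00 and -0.02 against -0.12, -0.13 and -0.10, and that of the vesicle list -0.01, 0.02 and 0.00 against 0.12, 0.09 and 0.08. In each of these 3 lists every DAPT + sErbB4 library was beyond every DAPT library. When any 1 library was left out of the fit, the medians stayed between -0.20 and -0.15 for collagens, -0.13 and -0.09 for radial glia and 0.09 and 0.13 for vesicle genes.

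The promoters of list members were searched for the motifs of factors linked to these programmes, in RefSeq windows from 250 bases before to 50 after the start (GRCm38.p6), on both strands. Windows were found for 75 measured genes of the collagen and the matrix glycoprotein lists (91 windows, since some genes have several starts) and for 36 of the 49 vesicle genes (48 windows). The TEAD motif GGAATG, through which YAP acts, was in 13.2% of the matrix windows, 12.5% of the vesicle windows and 12.4% of the 15140 windows of all genes tested. The AP-1 motif TGANTCA was in 5.49, 6.25 and 5.17%, the CREB motif TGACGTCA in 1.10, 2.08 and 2.89%, and the Sp1 motif GGGCGG in 64.8, 60.4 and 60.5%. The CREB motif was in 1 window of each list, too few for a comparison of its shares. The 250 bases before the start of Syp, Nes and Adamts1, genes with small p values, are shown with these motifs in capitals, on the strand of the gene. Syp is in the vesicle list. Nes is in the radial glia list and Adamts1 in the list of matrix enzymes, which were not searched as lists. The Syp bases lie at chrX:7638330-7638579 (+), those of Nes at chr3:87970843-87971092 (+) and those of Adamts1 at chr16:85803114-85803363 (-).
Syp: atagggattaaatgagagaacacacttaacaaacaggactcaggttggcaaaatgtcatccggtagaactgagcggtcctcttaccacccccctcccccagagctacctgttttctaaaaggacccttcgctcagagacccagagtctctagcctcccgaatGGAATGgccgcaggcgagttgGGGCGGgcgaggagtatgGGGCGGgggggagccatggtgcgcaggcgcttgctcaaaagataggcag
Nes: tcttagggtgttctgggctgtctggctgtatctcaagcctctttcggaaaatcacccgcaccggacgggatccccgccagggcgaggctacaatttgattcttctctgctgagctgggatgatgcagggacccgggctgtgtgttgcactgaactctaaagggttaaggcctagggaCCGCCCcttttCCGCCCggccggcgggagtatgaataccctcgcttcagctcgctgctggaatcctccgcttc
Adamts1: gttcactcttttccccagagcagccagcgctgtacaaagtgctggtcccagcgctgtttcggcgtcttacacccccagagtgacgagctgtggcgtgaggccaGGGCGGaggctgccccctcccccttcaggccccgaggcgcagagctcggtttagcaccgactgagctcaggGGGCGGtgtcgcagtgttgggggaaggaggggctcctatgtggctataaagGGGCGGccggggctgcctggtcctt
The Syp stretch holds 1 TEAD and 2 Sp1 matches, that of Nes 2 Sp1 matches on the opposite strand (CCGCCC) and that of Adamts1 3 Sp1 matches.

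Neuropeptide and interneuron genes held larger differences, in both directions. Cck, which encodes the peptide cholecystokinin of a class of interneurons and of some excitatory neurons, stood at 69.4, 79.1 and 69.8 CPM with DAPT and at 105, 97.4 and 91.8 CPM with DAPT + sErbB4 (log2 FC 0.43 ± 0.10 SE, edgeR-adjusted p = 0.272). Tac1, the substance P precursor, was at 18.2, 17.6 and 18.1 CPM and at 26.7, 24.7 and 19.7 CPM (log2 FC 0.39 ± 0.11 SE, edgeR-adjusted p = 0.344). Both did not overlap between groups and both were called by DESeq2 (adjusted p = 0.00153 and 0.0399). Genes were named for such a call or for a small p, which favours groups without overlap. Penk, proenkephalin, was lower in level, at 2.36 ± 0.14 and 3.53 ± 0.564 CPM (log2 FC 0.59 ± 0.14 SE, edgeR-adjusted p = 0.306). Of 31 neurotrophin and neuropeptide genes 22 were positive (median 0.06), 4 higher and 2 lower at an unadjusted p under 0.05.

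Pvalb, parvalbumin, the calcium-binding protein of fast-spiking interneurons, went the other way and had the smallest p of all genes tested. It stood at 5.46, 5.90 and 6.14 CPM with DAPT and at 3.44, 3.69 and 3.88 CPM with DAPT + sErbB4 (log2 FC -0.67 ± 0.08 SE, edgeR-adjusted p = 0.0795), and limma called it (adjusted p = 0.0491). Every DAPT + sErbB4 library was below every DAPT library. Sox6, a transcription factor of parvalbumin and somatostatin interneurons and of oligodendrocyte precursors, was also lower, at 33.7 ± 1.81 and 28.7 ± 0.418 CPM (log2 FC -0.23 ± 0.04 SE, edgeR-adjusted p = 0.21). Gad1, the GABA-synthesizing enzyme common to interneurons, was at 56.5 ± 0.694 and 64.0 ± 2.44 CPM (log2 FC 0.18 ± 0.13 SE, edgeR-adjusted p = 0.737). Of the 30 interneuron genes 20 were positive (median 0.13), 4 higher and 3 lower at an unadjusted p under 0.05.

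Granule cells are the principal neurons of the dentate gyrus. Of 18 of their genes 14 were positive (median 0.09), 3 of them at an unadjusted p under 0.05. C1ql2, a secreted synaptic protein of mossy fibre terminals, stood at 10.1, 10.1 and 9.08 CPM with DAPT and at 14.0, 12.1 and 12.9 CPM with DAPT + sErbB4 (log2 FC 0.41 ± 0.07 SE, edgeR-adjusted p = 0.173), without overlap. Prox1, the factor that defines the cell type, did not separate the groups, at 31.2, 30.8 and 33.3 CPM and 32.0, 33.2 and 32.2 CPM (log2 FC 0.03 ± 0.06 SE, edgeR-adjusted p = 0.95). Immature neuron genes had 12 of 20 positive (median 0.04). Map2, a defining neuronal marker, was also near level, at 148, 153 and 152 CPM and 153, 154 and 155 CPM (log2 FC 0.03 ± 0.05 SE, edgeR-adjusted p = 0.931). Other neuronal markers had larger positive estimates, and none passed the test. Snap25, given above, had a log2 FC of 0.17. Tubb3 had a log2 FC of 0.11 (± 0.05 SE, edgeR-adjusted p = 0.535). Rbfox3 had a log2 FC of 0.10 (± 0.05 SE, edgeR-adjusted p = 0.57). Of these markers, only Tubb3 overlapped between groups.

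The genes of the pathway itself were given whatever their values. Nrg1 stood at 15.3, 13.7 and 13.7 CPM with DAPT and at 13.5, 11.9 and 11.9 CPM with DAPT + sErbB4 (log2 FC -0.20 ± 0.08 SE, edgeR-adjusted p = 0.508). Its groups did not overlap, by a margin smaller than the range within either group. Erbb4 was at 6.85 ± 0.406 and 7.26 ± 0.204 CPM (log2 FC 0.08 ± 0.13 SE, edgeR-adjusted p = 0.925). Of 21 neuregulin, ErbB receptor and protease genes 15 were negative (median -0.07), and 4 were lower at an unadjusted p under 0.05, among them Nrg1, the protease Bace2 and the ErbB ligand Hbegf.

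PI3K, Akt and mTOR pathway genes, which encode the enzymes of local back signaling, were split evenly, with 16 of 32 positive (median 0.01) and 1 in each direction at an unadjusted p under 0.05. Akt1 was at 121 ± 4.94 and 123 ± 4.75 CPM (log2 FC 0.02 ± 0.05 SE, edgeR-adjusted p = 0.962), and its sign turned when DAPT replicate 3 or DAPT + sErbB4 replicate 1 or 3 was left out. Akt can restrain FoxO target genes by keeping FoxO factors out of the nucleus. In the list of FoxO targets, which also holds genes of the FoxO factors themselves, 19 of 25 were negative (median -0.06). At an unadjusted p under 0.05, 2 were lower and 1 higher (4.42 and 4.79% of all genes). Whether Akt had a part in these values was not tested. Foxo1 was at 23.9 ± 0.438 and 22.3 ± 1.00 CPM (log2 FC -0.10 ± 0.04 SE, edgeR-adjusted p = 0.517). Of 17 genes of ERK feedback 14 were negative (median -0.03) and 1, Etv5, was lower at an unadjusted p under 0.05.

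Nicotinic acetylcholine receptors are carried to the axon surface during Nrg1 back signaling in other neurons. Chrna7, the α7 subunit, was at 7.99, 8.36 and 7.35 CPM with DAPT and at 8.78, 8.87 and 8.18 CPM with DAPT + sErbB4, which overlapped (log2 FC 0.13 ± 0.09 SE, edgeR-adjusted p = 0.739). Of the 4 proteins of this list that control assembly or function of the receptor, Ly6h and Tmem35a had smaller p values than Chrna7 and Lynx1 and Ric3 larger ones (unadjusted p = 0.207 and 0.415, edgeR). Ly6h, which holds α7 receptors back from the surface, was at 114, 119.7 and 114 CPM and at 141, 137 and 129.9 CPM (log2 FC 0.23 ± 0.07 SE, edgeR-adjusted p = 0.345), and Tmem35a, the chaperone NACHO, at 47.9 ± 1.87 and 54.2 ± 1.55 CPM (log2 FC 0.18 ± 0.07 SE, edgeR-adjusted p = 0.494). Of the 17 entries of this list 9 were measured, and 7 of these were positive. The 2 negative ones, Chrna4 and Chrnb1, are receptor subunits, and the 4 proteins that control the receptor were all positive.

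Immediate early genes, which neurons transcribe within minutes to hours of activity, had 13 of 30 members positive (median -0.02), 2 higher and 5 lower at an unadjusted p under 0.05. Fos was at 34.5, 32.9 and 32.3 CPM with DAPT and at 30.8, 29.8 and 30.1 CPM with DAPT + sErbB4 (log2 FC -0.14 ± 0.17 SE, edgeR-adjusted p = 0.888). Nr4a1 was at 8.79 ± 0.495 and 7.32 ± 0.302 CPM (log2 FC -0.27 ± 0.10 SE, edgeR-adjusted p = 0.487) and Egr3 at 10.4 ± 0.338 and 12.1 ± 0.584 CPM (log2 FC 0.21 ± 0.07 SE, edgeR-adjusted p = 0.399). Nr4a1 and Egr3, named for being among the 3 smallest p values of the list, differed in sign. Arc and Bdnf overlapped between groups, with log2 FC values of 0.02 and 0.06 (adjusted p = 0.986 and 0.849, same edgeR test), and each changed sign when 1 DAPT library was left out (to -0.07 without replicate 3 and to -0.02 without replicate 1).

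Nuclear genes of oxidative phosphorylation, which encode most subunits of the mitochondrial respiratory chain, had 42 of 47 members positive (89.4%) with a small median of 0.05. At an unadjusted p under 0.05, 6 were higher and 0 lower (4.79 and 4.42% of all genes). Atp5c1, a subunit of ATP synthase, stood at 231, 238 and 241 CPM with DAPT and at 263, 254 and 262 CPM with DAPT + sErbB4 (log2 FC 0.13 ± 0.04 SE, edgeR-adjusted p = 0.336), without overlap. Cytosolic ribosomal protein genes had 57 of 74 positive (median 0.05), with 6 higher and 1 lower at an unadjusted p under 0.05. Members of this list with the largest folds varied between libraries of a group. Rpl26 was at 262, 245 and 7.55 CPM with DAPT and at 14.7, 47.3 and 21.6 CPM with DAPT + sErbB4, and Rps15a at 41.9, 43.3 and 45.3 CPM and at 131, 95.2 and 44.7 CPM. In both, 1 library of a group lay at the level of the other group. Notch pathway genes, whose receptors are also γ-secretase substrates, had 18 of 29 negative (median -0.06), and the 1 member at an unadjusted p under 0.05 was higher with sErbB4. Mitosis genes had 17 of 30 negative (median -0.06, and -0.000233 without DAPT + sErbB4 replicate 1) and 0 at an unadjusted p under 0.05.

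The remaining lists had few members past an unadjusted p of 0.05. Glycolysis genes had 14 of 24 negative, with 2 in each direction. Cholesterol synthesis and uptake genes had 14 of 25 negative and also 2 in each direction. Unfolded protein and amino acid stress genes had 19 of 32 negative, with 1 in each direction. Interferon-stimulated and antigen presentation genes had 22 of 27 negative (median -0.08) and 0 at an unadjusted p under 0.05.

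The same 4 h of sErbB4 without DAPT can be read from sErbB4 against vehicle, which shares no library with the comparison above. There 623 genes were higher (3.98%) and 561 lower (3.58%) at an unadjusted p under 0.05. Across the 10888 genes of at least 5 CPM, the log2 FC with and without DAPT correlated at r = 0.26 (Spearman rho 0.35), a description over genes, which are not independent. Over all 15656 genes tested r was 0.0356. Without vehicle replicate 1 r was 0.13 and without vehicle replicate 3 it was 0.38. The vesicle list had 45 of 49 members positive (median 0.13) with 29 higher and 1 lower at an unadjusted p under 0.05, the collagen list 25 of 32 negative (median -0.10) with 5 lower, and the matrix glycoprotein list 56 of 69 negative (median -0.08) with 12 lower and 1 higher. Radial glia genes had 26 of 29 negative (median -0.09). Over the fits that each left out 1 library, the medians without DAPT ranged from 0.11 to 0.15 for vesicle genes and from -0.13 to -0.06 for collagens.

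The difference between the sErbB4 effects with and without DAPT was tested directly. At an unadjusted p under 0.05, 565 genes differed (3.61% of the genes tested). Of the vesicle genes 4 of 49 did, of the collagens 1 of 32, of the matrix glycoproteins and proteoglycans 2 of 69 and of the radial glia genes 1 of 29. Syp had a log2 FC of 0.17 (SE 0.03) without DAPT, and its effects differed by 0.04 (unadjusted p = 0.345, edgeR quasi-likelihood test). Eln, unlike Syp, had estimates of opposite sign. Its log2 FC was 0.09 (SE 0.05) without DAPT, which did not pass the test (unadjusted p = 0.0876, adjusted p = 0.724, same edgeR test). With DAPT it was -0.34, a difference of -0.43 (unadjusted p = 4.05e-05, adjusted p = 0.268, same edgeR test). Eln, like Pvalb, Atp5c1 and Olig2 below, was named for a small p under DAPT, and that effect enters the difference. Pvalb was at -0.18 (SE 0.08) without DAPT, a difference of -0.49 (unadjusted p = 0.0015, adjusted p = 1, same edgeR test). Oxidative phosphorylation genes had 19 of 47 members positive without DAPT against 42 with it. Their median without DAPT was -0.02, and it ran from -0.05 to 0.01 with 1 library left out, so its sign was not stable. Of the 47 genes, 5 differed at an unadjusted p under 0.05. Atp5c1 was among them, with a log2 FC of -0.11 (SE 0.04) without DAPT and a difference of 0.25 (unadjusted p = 0.000395, adjusted p = 0.665, same edgeR test). Olig2 was at 0.01 (SE 0.03) without DAPT, a difference of -0.18 (unadjusted p = 0.00314, adjusted p = 1, same edgeR test).

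**Figure D5:**
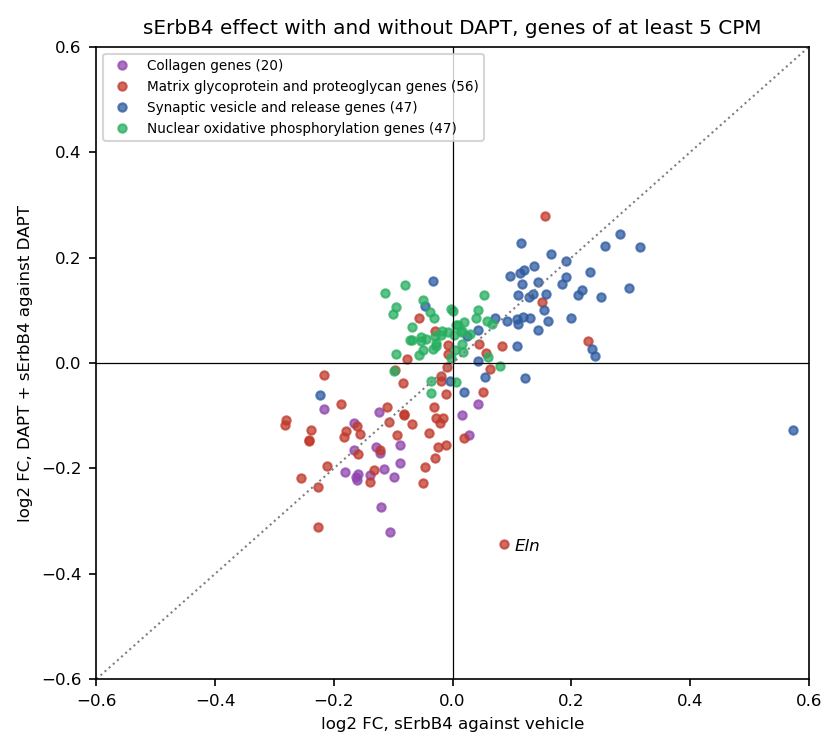
Log2 FC of sErbB4 under DAPT (y axis) against that without DAPT (x axis) for members of at least 5 CPM of 4 lists, each point a gene, with the dotted line marking equal effects. Of 47 vesicle genes 39 are positive on both axes and of 20 collagen genes 17 are negative on both, while Eln lies below the line and 42 of 47 oxidative phosphorylation genes are positive on the y axis against 19 on the x axis.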

How the data were processed

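RNA from hippocampal cultures was sequenced as poly-A libraries with paired reads. According to the study's methods and processing notes, Trimmomatic was used to trim reads, HISAT2 for alignment to mm10, StringTie for assembly and IsoformSwitchAnalyzeR for gene values by the authors; versions are not given in the sources used here. The deposited table holds estimated counts that had not been scaled across libraries. They were rounded to whole numbers. Of 21312 loci, the 1976 without a gene name were left out, which hold 43.4 to 51.8% of a library's counts. The 15656 genes passing edgeR's filterByExpr were normalized by TMM and fitted in a model of the 4 condition means (edgeR 4.0.16 quasi-likelihood F test, R 4.3.3, 8 residual degrees of freedom). Adjustment was by Benjamini-Hochberg over all genes, and the call needed an adjusted value under 0.05 with a log2 FC beyond 0.32 in either direction. SE is the log2 FC divided by the root of F. A count of 0 allows up to 3 counts per library, for counting error only.

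The comparison and its 37 gene lists were chosen with earlier results of these data known, so no list is independent evidence of its direction. Lists are described by counts and medians, without a test, and some share members. Of 1197 list entries 1144 passed the filter and are the measured members. Genes were named if they were among the 12 smallest p values in either direction at a mean of at least 5 CPM, among the 3 smallest of a list, called by an alternative, or on a short list of the pathway and of each gene group (Nrg1, Erbb4, Syp, Fn1, Col1a1, Vim, Akt1, Chrna7, Fos, Arc, Bdnf). Defining cell type markers were added. Some genes that the rule names are not reported here. The labels do not say that libraries came from separate platings, and p values measure the spread between these libraries. Within each group the libraries differed by more than sampling noise. Promoters came from RefSeq. The code was tested on simulated counts. Alternatives were RLE scaling, no filter, DESeq2 1.42.0, limma 3.58.1 on log2(CPM + 2) with cyclic loess, the 6 compared libraries alone, a replicate block, unnamed loci kept, Rn45s left out, and each library left out.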

Additional observations from a re-analysis of the deposited data

Results flagged for a closer look

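Htd2, a gene of mitochondrial fatty acid synthesis, was the single gene whose sErbB4 effect differed between cultures with and without DAPT past the threshold (difference of the log2 FC 9.41, adjusted p = 0.00156, edgeR quasi-likelihood test). It was listed at 0 in all 3 sErbB4 libraries and at 3.13, 2.70 and 3.78 CPM in the vehicle libraries, so the fitted difference depends on the prior count. Against a floor of 3 counts per library, its level was at least 28.3-fold lower with sErbB4 than with vehicle. Under DAPT it did not separate the groups, at 2.65, 3.40 and 3.27 CPM without sErbB4 and 2.44, 3.11 and 4.13 CPM with it (log2 FC 0.06 ± 0.21 SE, edgeR-adjusted p = 0.97). The locus overlaps that of another gene, and whether the deposited values split reads between them was not tested. Htd2 was named after its values were seen.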

How the results depend on the processing

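Genes called in DAPT + sErbB4 against DAPT numbered 0 with RLE scaling, no filter, the replicate block, unnamed loci kept or Rn45s left out, against 9 with DESeq2 (Cck, Cox16, Cox6b2, Dmtn, Dynlrb2, Eln, Fsd1, Tac1, Zbtb22), 1 with limma (Pvalb), 2 with only the 6 libraries compared (Eef1akmt2, Mir678), 3 with the replicate block on those 6 (Diablo, Eef1akmt2, Snora7a), and 0 to 2 with 1 library left out (Gm14393 and Gm15772 without DAPT replicate 3, Rps15a without DAPT + sErbB4 replicate 3). The 1442 genes at an unadjusted p under 0.05 became 1853 with only the 6 libraries compared and 911 to 1655 with 1 library left out, the lowest when DAPT replicate 1 was dropped, with 940 when DAPT + sErbB4 replicate 1 was. In sErbB4 against vehicle, 5 genes were called, 3 with DESeq2, 2 with the replicate block and 1 to 5 with 1 library left out; the difference of the effects gave 1, 4 with DESeq2 and 1 to 3 with 1 left out. The medians of 31 of the 37 lists kept their sign under every alternative. The sign turned with 1 library left out for PI3K, Akt and mTOR (0.00765, range -0.0164 to 0.0121), immediate early (-0.0206, -0.0867 to 0.0179), glutamate receptor (0.0428, -0.00557 to 0.0600), guidance (0.00496, -0.0263 to 0.0205), endothelial (0.0225, -0.0778 to 0.0225) and cholesterol genes (-0.0118, -0.0420 to 0.00262), and it also turned for PI3K, guidance and endothelial genes with limma. Medians that kept their sign but moved by over 1.5 times with 1 library left out included those of axon growth (0.0209 to 0.0623), mitosis (-0.0945 to -0.000233), microglia (-0.125 to -0.0244), ependymal (-0.154 to -0.0456), myelin (-0.103 to -0.0308), Notch (-0.0909 to -0.0336), FoxO target (-0.0839 to -0.0367), ERK feedback (-0.0736 to -0.0223), ribosomal protein (0.0146 to 0.0605), immature neuron (0.0155 to 0.0450), glycolysis (-0.0774 to -0.00317), unfolded protein (-0.0458 to -0.00639) and neurotrophin and neuropeptide genes (0.0280 to 0.108). Among the lists with the clearest direction, values that moved beyond the spread were those of voltage-gated channels (0.0725 with limma, 0.0609 to 0.0957 with 1 library left out), oxidative phosphorylation (0.0345 with limma, 0.0436 to 0.0633), granule cells (0.0546 for members of at least 5 CPM, 0.0461 to 0.134), postsynaptic scaffolds (0.0397 to 0.0656), radial glia (-0.126 to -0.0886), oligodendrocyte precursors (-0.129 to -0.0836) and fibroblasts and vessel wall (-0.181 to -0.105). With 1 library left out, Akt1 ran from -0.0291 to 0.0479 (-0.00229 with limma), Arc from -0.0673 to 0.0774 and Bdnf from -0.0197 to 0.103, each reversing. The cause was not tested. No source says that the numbers pair libraries, and deviations of same-numbered libraries correlated at 0.21, 0.32 and -0.06 over 2000 genes; no other call changed under the block.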

Other observations

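Some of the largest folds came from genes whose level switched between libraries of 1 condition. Eef1akmt2, a lysine methyltransferase of elongation factor 1A, was at 3.39, 4.51 and 3.43 CPM with DAPT and at 22.4, 22.1 and 24.7 CPM with DAPT + sErbB4 (log2 FC 2.62 ± 0.65 SE, edgeR-adjusted p = 0.33). In the other libraries it took either level within a condition, at 21.8, 21.6 and 4.73 CPM with vehicle and 4.15, 4.28 and 20.9 CPM with sErbB4. Diablo, a mitochondrial regulator of apoptosis, was at 9.67, 5.77 and 5.19 CPM and at 1.13, 0.796 and 0.356 CPM (log2 FC -3.20 ± 0.68 SE, edgeR-adjusted p = 0.249). Diablo also had a negative log2 FC of -3.89 (SE 0.76) in sErbB4 against vehicle (adjusted p = 0.257, same edgeR test), where the vehicle libraries were at 7.24, 9.27 and 0.956 CPM, the last near the sErbB4 libraries at 0.564, 0.383 and 0.205 CPM. Gm15772 was at 216 and 217 CPM in DAPT replicates 1 and 2 and at 508 CPM in replicate 3, beside 499.8, 439 and 471 CPM with DAPT + sErbB4. Gm14393 was listed at 0 in DAPT replicates 1 and 2 and at 1.76 CPM in replicate 3, beside 1.44, 1.74 and 2.06 CPM with DAPT + sErbB4. Whether the assembly of transcripts set these values was not tested.

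Beyond the lists, Vsnl1, a neuronal calcium sensor, stood at 37.2, 38.9 and 40.6 CPM with DAPT and at 51.2, 47.3 and 45.7 CPM with DAPT + sErbB4 (log2 FC 0.30 ± 0.06 SE, edgeR-adjusted p = 0.18). Its log2 FC without DAPT was 0.08 (SE 0.06). Sumo3, a small ubiquitin-like modifier, was at 46.7, 46.8 and 48.8 CPM and at 57.9, 54.9 and 53.5 CPM (log2 FC 0.22 ± 0.04 SE, edgeR-adjusted p = 0.18), with a log2 FC of 0.01 (SE 0.04) without DAPT. Sephs2, which makes selenophosphate, was at 23.9 ± 0.319 and 28.4 ± 1.13 CPM (log2 FC 0.25 ± 0.04 SE, edgeR-adjusted p = 0.173). Of the 12 genes with the smallest p in each direction, Myo1e, a membrane-bound myosin, was at 26.6, 24.6 and 24.9 CPM and at 20.8, 21.8 and 21.8 CPM (log2 FC -0.24 ± 0.04 SE, edgeR-adjusted p = 0.173). In each of these 4 genes the groups did not overlap, as for 9.17% (higher) and 9.82% (lower) of all genes tested. All 4 were named for small p values, which favours groups without overlap.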
